A study of Homo sapiens with 5 samples.

Results

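Secreted and membrane proteins enter the endoplasmic reticulum (ER) through machinery encoded by the 32 genes described here, which were taken as a fixed list of symbols and found by their GENCODE names among the 64252 Ensembl gene identifiers of the count table. All 32 were in the table and all 32 passed the filter on low counts, among 15341 genes tested. They were grouped by complex into 5 translocon genes, 4 genes of the translocon-associated protein (TRAP) complex, 5 signal peptidase genes, 6 protein genes of the signal recognition particle (SRP), 2 SRP receptor genes and 10 genes of the oligosaccharyltransferase (OST). The choice of genes did not use any measured value by its rule, but it was made with earlier results of these data known.

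The values come from RNA-seq of RPE-1 cells, an established human retinal pigment epithelial cell line. Wild-type cells received a pool of ON-TARGETplus siRNAs against FAM53C (siFAM53C) or the ON-TARGET Control #1 siRNA (siCtrl), both at 5 µM with Lipofectamine RNAiMAX, and RNA was collected 48 hours later. There were 3 siCtrl and 2 siFAM53C libraries, with 19260124 to 25615415 counted reads each. The study made the comparison to ask if loss of FAM53C raises transcription of CDKN1A, which encodes the cell-cycle inhibitor p21. The siRNAs were used as a pool, so effects of single siRNAs cannot be told apart, and nothing in the labels says that the libraries came from separate cultures, so p-values measure the spread between these libraries, which may be technical.

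A nascent protein with a signal sequence is bound by the SRP, which slows translation and brings the ribosome to the SRP receptor on the ER membrane. The chain then passes through the SEC61 channel, with TRAP beside it. Signal peptidase removes the signal sequence, and the OST transfers a preassembled, lipid-linked sugar chain to asparagine residues. Genes of this machinery belong to those that the unfolded protein response, the ER stress pathway of IRE1, PERK and ATF6, is known to raise.

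The cell line label was checked first. Of 10 markers of retinal pigment epithelium, MITF had 40.0 ± 7.78 CPM (read counts scaled to a common library total) in siCtrl (mean ± SD, n = 3 here and below) and OTX2 had 16.0 ± 1.21 CPM, whereas RPE65 and TTR were listed at 0 in all 5 libraries. The others were low, with LRAT at 1.42 ± 0.505 CPM, PMEL at 0.690 ± 0.123 CPM and BEST1 at 0.505 ± 0.264 CPM, and RLBP1, TYR and TYRP1 at 0 to 2 reads a library. The epithelial keratins KRT8 and KRT18 had 259 ± 24.6 and 168 ± 17.7 CPM and KRT7 had 8.05 ± 2.39 CPM, whereas the epithelial markers KRT19, CDH1 and EPCAM had 0 to 5 reads a library. Of the leukocyte, endothelial and hepatocyte markers, PTPRC, PECAM1 and SERPINA1 were the most abundant of their lists, ALB, APOA1, CD3E and CDH5 were listed at 0 in all 5 libraries, and the summed level of each list stayed at or below 1.05 CPM in every library. The mesenchymal markers, led by FN1, summed to 8551, 9431 and 11679 CPM in siCtrl and to 8959 and 11041 CPM in siFAM53C. Of these 4 markers, COL1A1 was called higher, with 17.6 ± 1.53 CPM in siCtrl, 29.2 and 29.4 CPM in siFAM53C and a log2 fold change of 0.74 (SE 0.14, edgeR adjusted p = 0.0357). CDH2 was not called, at -0.44 (edgeR adjusted p = 0.250), but had both siFAM53C libraries below the siCtrl libraries and was called lower with a term for the library side defined below (adjusted p = 0.00169 by edgeR). VIM and FN1 were at -0.14 and 0.13 with overlapping groups. The epithelial markers summed to 475, 440 and 390 CPM in siCtrl and to 508 and 509 CPM in siFAM53C. Without overlap, KRT8 was at 285, 257 and 236 CPM in siCtrl and at 319 and 328 CPM in siFAM53C. Its log2 fold change of 0.32 was not called (edgeR adjusted p = 0.232). With the term for the library side KRT8 was called higher (adjusted p = 0.0274 by edgeR). KRT18 and KRT7 were at 0.08 and -0.04 with overlapping groups. The part of these markers in the results below was not tested.

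The libraries did not separate by treatment alone. On the first principal component, which held 39.8% of the variance, siCtrl 1, siCtrl 2 and siFAM53C 1 lay at -31.5, -47.4 and 0.264, and siCtrl 3 and siFAM53C 2 at 33.7 and 44.9. The labels name no batch, so these 2 sides, called the first and the second below in that order, are defined from the data. On this component siFAM53C 1 lay between the other libraries, so its side is uncertain. The same counts defined the sides and were fitted with them, so p-values with a term for the library side may be too small. Differences within each side are given beside the pooled ones for the members called lower and for those whose sign differed between the sides. They are siFAM53C 1 minus the mean of siCtrl 1 and siCtrl 2, and siFAM53C 2 minus siCtrl 3. Each rests on a single siFAM53C library, and both use the libraries of the pooled value, so they are not separate replications of it. The cause of the split was not tested.

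FAM53C itself (ENSG00000120709, chr5:138331935-138349729, plus strand, GRCh38) was at 60.9, 59.7 and 57.6 CPM in siCtrl and at 14.2 and 22.3 CPM in siFAM53C. The groups did not overlap, and the fitted log2 fold change of -1.71 (SE 0.20) was called, with an adjusted p of 0.00508 in edgeR's quasi-likelihood test (corrected by Benjamini-Hochberg over all 15341 genes, as are the edgeR p-values below). Genes on the opposite strand cover 704 of its exon bases.

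Sequence features of the members are shown first, because some of them have been linked to ER stress or, in earlier results of these data, to lower values. The UPRE, an element bound by the ER stress factor XBP1, was searched as TGACGTGG on both strands of RefSeq promoters (GRCh38.p14, 250 bases before to 50 after the start). The promoter table held 34 promoters of 27 of the members, with no entry for SPCS1, SRPRA, STT3B, RPN1 and TUSC3. A match stood in 4 of the 34 promoters (11.8%), beside 0.729% of all 35116 promoters. Several starts of a gene can share bases, and the 34 promoters are not independent. Each match is printed on the gene's own strand, with the reverse complement of the motif in capitals.
SEC62, chr3:169966779-169966807, plus strand: ccctcctcgctCCACGTCAgagggaaccg
SSR3, chr3:156554149-156554177, minus strand: tctgataacagCCACGTCAgcaaggaaac
SSR4, chrX:153794528-153794556, plus strand: tcagggaggggCCACGTCAgtgctgccag
SRP19, chr5:112861164-112861192, plus strand: aagtcttcatgCCACGTCAgagactagag

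The SSR3 match lies in 1 of 3 listed starts of the gene. The SSR4 match likewise lies in only 1 of the starts listed for SSR4. The shorter core CCACG, which is contained in the reverse complement of the UPRE, stood in 61.8% of the 34 promoters and in 38.1% of all promoters. The longer elements ERSE (CCAAT, then 9 bases, then CCACG) and ERSE-II (ATTGG, then any base, then CCACG) were found in 0 of the 34 promoters and in 0.0769% and 0.0541% of all promoters. Of the 4 genes with a UPRE match, SSR3 is among the 5 genes called lower below, and SEC62, SSR4 and SRP19 are not. Of the other 4 called lower, SRP72, OSTC and SPCS3 had no match in the promoters listed, and STT3B was not searched.

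The heptamer GACAAGA was searched in the longest annotated 3′ UTR of each gene, since it was linked to lower values in earlier results of these data. It stood in 4 of the 32 members (12.5%), beside 14.7% of the 12088 tested genes with an annotated 3′ UTR. The sites are printed in the direction of the transcript (GRCh38), with the heptamer in capitals.
SEC61A1, chr3:128071159-128071187, plus strand: agtgaccaaggGACAAGAagggacttgcc
SEC62, chr3:169995577-169995605, plus strand: agttagctgctGACAAGAaaagtcatctt
SEC63, chr6:107869962-107869990, minus strand: gaaactgagcaGACAAGAcagaacaatgt
SSR1, chr6:7283021-7283049, minus strand: aaataaataaaGACAAGActgtctggaaa

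None of the 4 members with the heptamer was called lower, and the 5 members that were called lower hold no GACAAGA in these 3′ UTRs. The median log2 fold change was -0.28 over the 4 members with the heptamer and -0.19 over the 28 without it. Over all tested genes with an annotated 3′ UTR these medians were -0.15 with the heptamer and 0.02 without it. The FAM53C 3′ UTR holds 1 such site.

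Across the 32 members, 5 fell in siFAM53C and 0 rose. The 5 were SRP72, OSTC, SPCS3, SSR3 and STT3B, 1 each from the SRP, signal peptidase and TRAP groups and 2 from the OST. A gene is called lower or higher where the adjusted p of edgeR's quasi-likelihood test is under 0.05. The members called lower are 15.6% of the 32, beside 3.21% of all tested genes called lower and 0.404% called higher. The count was 2, 1 and 6 without siCtrl replicate 1, 2 or 3, and 0 and 1 without siFAM53C replicate 1 or 2, while the member median stayed between -0.26 and -0.18. A fit without 1 siFAM53C library leaves a single library in that group, so the spread comes from the siCtrl libraries alone and the lone library is assumed to vary like them. At an unadjusted p under 0.05, 12 members were lower and 0 higher, beside 10.5% and 6.54% of all tested genes. With a term for the library side, 11 were called lower and 0 higher, beside 9.73% and 5.67% of all tested genes. The 11 were the 5 above and SRP9, SEC62, SSR1, SSR2, RPN1 and MAGT1. Below 0 lay 27 of the 32 log2 fold changes, and the member median was -0.21, beside 0.016 over all tested genes, of which 48.2% lay below 0. Within the first side of the library split the member median was -0.21 and within the second -0.16, with 28 and 23 of the 32 members below 0. The sign differed between the sides for SSR4, SPCS1, SRP14, DDOST and TUSC3.

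Both siFAM53C libraries lay below the 3 siCtrl libraries for 15 members, beside 18.8% of all tested genes, and above them for SRPRA alone, beside 16.7%. Summed over the 32 members, 6275 ± 312 CPM in siCtrl stood against 4950 ± 37.5 CPM in siFAM53C (n = 2 here and below). Of this difference of 1325 CPM, SSR3 accounted for 420 CPM and the 5 called members together for 59.5%. Over the other 27 members the sums were 4327, 4497 and 4053 CPM in siCtrl and 3777 and 3735 CPM in siFAM53C, so the groups did not overlap there either. In a bulk sample, fewer cells with a transcript and less RNA per cell cannot be told apart.

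**Figure D1:**
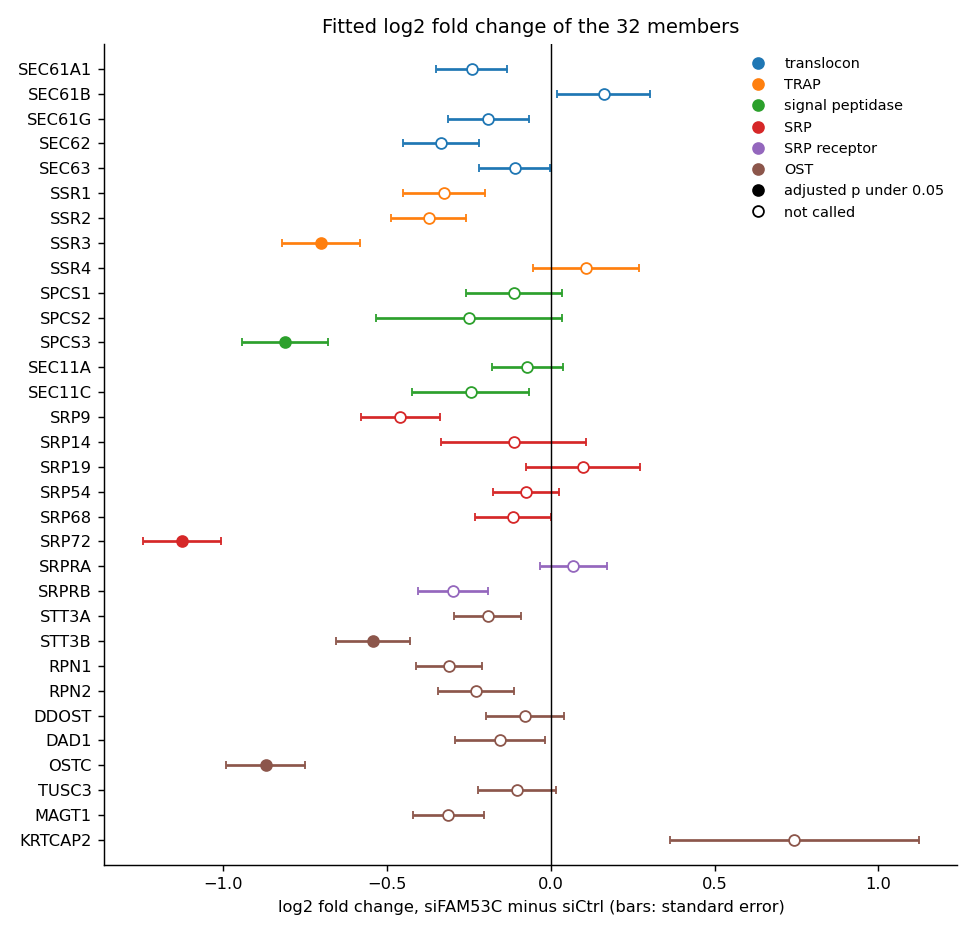
Fitted log2 fold change (siFAM53C minus siCtrl) of each of the 32 members, with bars of 1 standard error, coloured by complex. Filled points are the 5 members called lower, from -0.54 for STT3B to -1.13 for SRP72, and open points are members not called; KRTCAP2, at 0.74, has the widest bar.

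Among the SRP genes, SRP72 fell and the other 5 were not called. SRP72 (ENSG00000174780, chr4:56467617-56503681, plus strand), which forms a heterodimer with SRP68 on the SRP RNA, was at 230, 249 and 210 CPM in siCtrl and at 108 and 103 CPM in siFAM53C. The siFAM53C values were close to each other and far below each siCtrl value. The log2 fold change of -1.13 (SE 0.12, edgeR adjusted p = 0.00378) left 45.8% of the siCtrl level, and the difference was -1.15 and -1.03 within the 2 sides. Without siFAM53C replicate 1 it was -1.17 with an adjusted p of 0.0525 by the same edgeR test, in which siFAM53C has 1 library and the siCtrl libraries alone supply the spread. SRP68, its partner, was at 119, 121 and 105 CPM in siCtrl and at 112 and 99.1 CPM in siFAM53C, so the groups overlapped, with a log2 fold change of -0.12 (SE 0.12).

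SRP9 and SRP14 form the domain that slows translation. SRP9 was at 282, 311 and 259 CPM in siCtrl and at 215 and 199 CPM in siFAM53C, without overlap. Its log2 fold change of -0.46 (SE 0.12, edgeR adjusted p = 0.102) was not called. It was called by DESeq2's Wald test (adjusted p = 0.0167) and by edgeR without a filter on low counts (0.0312), with a replicate block by titles (0.0430) or by column names (0.0158), with a term for the library side (0.00560) and without siCtrl replicate 3 (0.0331). SRP14 was at 239, 265 and 165 CPM in siCtrl and at 237 and 176 CPM in siFAM53C. Here siCtrl 3 and siFAM53C 2 were the low libraries, and the difference was -0.09 within the first side and 0.09 within the second. SRP54, the subunit that binds the signal sequence, and SRP19, which takes part in assembly of the particle, had log2 fold changes of -0.08 and 0.10 with overlapping groups. SRP19 shares 1909 of its exon bases with other genes on its own strand.

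Neither SRP receptor gene was called. SRPRA was at 259, 257 and 239 CPM in siCtrl and at 259 and 269 CPM in siFAM53C. Both siFAM53C libraries were just above the highest siCtrl library, with a log2 fold change of 0.07 (SE 0.10). SRPRB, the membrane anchor, was at 57.2, 57.5 and 51.9 CPM in siCtrl and at 44.6 and 45.7 CPM in siFAM53C. These groups did not overlap, and the log2 fold change of -0.30 (SE 0.11) had an unadjusted p of 0.0254 and an adjusted p of 0.217 in the edgeR fit. Whether the 2 subunits differ from each other was not tested.

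None of the 5 translocon genes was called. SEC61A1, which encodes the channel itself, was at 666, 652 and 597 CPM in siCtrl and at 543 and 536 CPM in siFAM53C, with a fitted log2 fold change of -0.24 (SE 0.11, edgeR adjusted p = 0.312) with no overlap between the groups. Its small partners SEC61B and SEC61G had log2 fold changes of 0.16 and -0.19 with overlapping groups. SEC62, which acts with SEC63 in translocation of finished chains, was at 106, 119 and 127 CPM in siCtrl and at 89.8 and 96.3 CPM in siFAM53C. Both siFAM53C libraries were below the lowest siCtrl library, and the log2 fold change was -0.33 (SE 0.12, edgeR adjusted p = 0.204, and 0.0166 with a term for the library side). SEC63 had a log2 fold change of -0.11 with overlapping groups.

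In the TRAP complex, SSR3 fell and the other 3 were not called. SSR3 (ENSG00000114850, chr3:156539553-156555149, minus strand), the gamma subunit, was at 1058, 1194 and 1020 CPM in siCtrl and at 696 and 644 CPM in siFAM53C. The gap between the groups was wider than the spread within either. The log2 fold change was -0.70 (SE 0.12, edgeR adjusted p = 0.0250), 61.4% of the siCtrl level, with -0.69 and -0.66 within the sides. Without siCtrl replicate 1 or 2 it was -0.72 and -0.63, and without siFAM53C replicate 1 or 2 it was -0.77 and -0.65, each no longer called. Of its exon bases, 1075 overlap a gene on the opposite strand, and whether the counting used the strand is not given in the sources used here.

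SSR1 and SSR2, the alpha and beta subunits, had log2 fold changes of -0.33 (SE 0.13) and -0.37 (SE 0.11), with unadjusted p of 0.0341 and 0.0132 in the edgeR fit, and both were called with a term for the library side (edgeR adjusted p = 0.0377 and 0.0139). For both, the siFAM53C libraries lay below the 3 siCtrl libraries. SSR4, the delta subunit, was at 74.7, 78.8 and 56.5 CPM in siCtrl and at 70.0 and 81.0 CPM in siFAM53C. Its difference was -0.13 within the first side and 0.52 within the second, so the sides gave opposite signs.

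Of the signal peptidase genes, SPCS3 fell and the other 4 were not called. SPCS3 (ENSG00000129128, chr4:176319966-176332245, plus strand), an accessory subunit, was at 199, 202 and 237 CPM in siCtrl and at 112 and 130 CPM in siFAM53C. In both groups the library of the second side was the higher, and the groups did not overlap. The log2 fold change was -0.81 (SE 0.13, edgeR adjusted p = 0.0213), 57.0% of the siCtrl level, and -0.84 and -0.87 within the sides. Leaving out siCtrl replicate 1 or 2 gave -0.86 and -0.85, and leaving out siFAM53C replicate 1 or 2 gave -0.71 and -0.93, each no longer called.

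The catalytic subunits SEC11A and SEC11C had log2 fold changes of -0.07 (SE 0.11) and -0.25 (SE 0.18) with overlapping groups. SPCS1 was at -0.11, with -0.16 within the first side and 0.08 within the second, and with 2897 of its exon bases overlapping genes on the opposite strand. SPCS2 was at 63.3, 68.8 and 37.7 CPM in siCtrl and at 58.0 and 37.2 CPM in siFAM53C. As with SRP14, siCtrl 3 and siFAM53C 2 were the low libraries, and the log2 fold change of -0.25 had an SE of 0.28.

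The OST held both STT3B and OSTC, which fell. STT3B (ENSG00000163527, chr3:31532638-31637616, plus strand), the catalytic subunit that can modify proteins after their translation, was at 345, 375 and 384 CPM in siCtrl and at 241 and 264 CPM in siFAM53C. The log2 fold change of -0.54 (SE 0.11, edgeR adjusted p = 0.0472), 68.6% of the siCtrl level, was just past the threshold, with -0.58 and -0.54 within the sides. With library totals in place of scaling factors it was -0.47 (adjusted p = 0.0776 by the same edgeR test). Without siCtrl replicate 1 or 2 it was -0.59 and -0.53 and without siFAM53C replicate 1 or 2 it was -0.48 and -0.61, each no longer called.

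OSTC (ENSG00000198856, chr4:108650585-108667820, plus strand) joins the OST form with STT3A to the translocon. It was at 76.2, 88.6 and 80.8 CPM in siCtrl and at 42.0 and 47.5 CPM in siFAM53C, without overlap. The log2 fold change was -0.87 (SE 0.12, edgeR adjusted p = 0.0114), 54.7% of the siCtrl level, and -0.97 and -0.76 within the sides. Without siCtrl replicate 2 it was -0.81, and without siFAM53C replicate 1 or 2 it was -0.79 and -0.96, each no longer called. GENCODE names 7 pseudogene copies of OSTC, so its counts are uncertain where reads were shared among copies.

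STT3A, the catalytic subunit that works beside the translocon, was at 285, 286 and 291 CPM in siCtrl and at 241 and 262 CPM in siFAM53C, with a fitted log2 fold change of -0.19 (SE 0.10, edgeR adjusted p = 0.402) with no overlap. Of the subunits that both OST forms use, RPN1 was at -0.31, RPN2 at -0.23, DAD1 at -0.16 and DDOST at -0.08, none of them called. Within the first and the second side DDOST was at -0.15 and 0.07. RPN1 was at 327, 320 and 314 CPM in siCtrl and at 259 and 258 CPM in siFAM53C, with an SD of 0.542 CPM in siFAM53C. Its unadjusted p was 0.0162 and its adjusted p 0.173 in the edgeR fit, and 0.0209 with a term for the library side. The oxidoreductase subunits MAGT1 and TUSC3, which are alternatives in the STT3B form, were at -0.31 and -0.10. MAGT1 was called with a term for the library side (edgeR adjusted p = 0.0330), and TUSC3 was at -0.13 within the first side and 0.01 within the second.

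KRTCAP2, the other subunit of the STT3A form, had the highest log2 fold change of the members, 0.74 (SE 0.38, edgeR adjusted p = 0.384). It was at 3.10, 2.83 and 5.08 CPM in siCtrl and at 4.35 and 7.94 CPM in siFAM53C, so the groups overlapped. The counts behind it were low, from 54 to 187 reads a library, and another gene on its strand covers 705 of its exon bases.

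**Figure D2:**
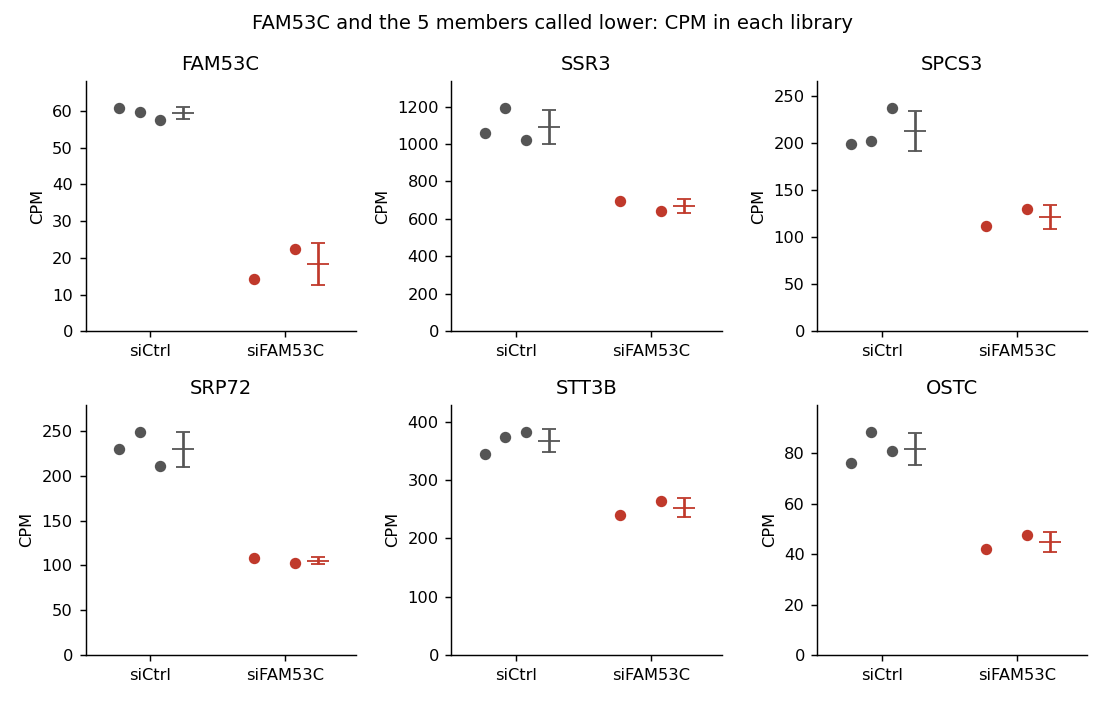
CPM of FAM53C and the 5 members called lower in each library, with points for single libraries and bars for mean ± SD (siCtrl n = 3, siFAM53C n = 2), each panel starting at 0. In all 6 panels both siFAM53C libraries lie below the lowest siCtrl library.

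**Figure D3:**
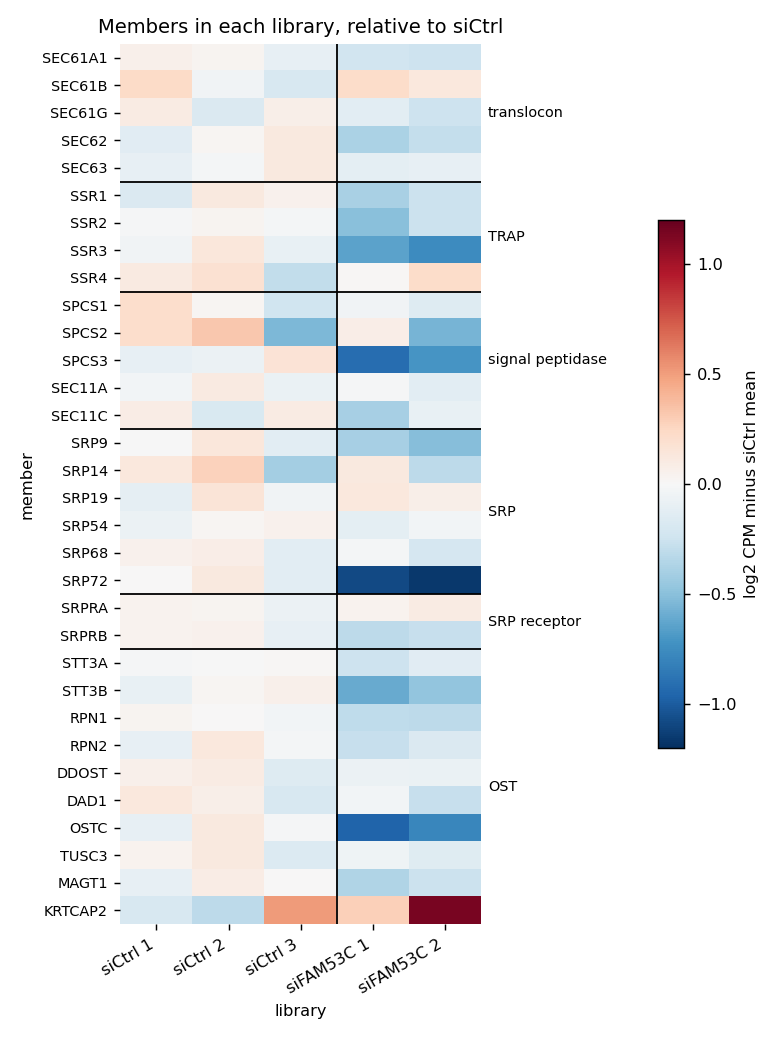
log2 CPM of each member in each library minus the mean of the 3 siCtrl libraries, with members in rows by complex and libraries in columns. SRP72, OSTC, SPCS3 and SSR3 are the darkest blue in both siFAM53C columns, STT3B is at -0.61 and -0.48 there, and SPCS2 and SRP14 are blue in siCtrl 3 and siFAM53C 2.

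For the alternative subunits, the log2 ratio of the pair per exon length was compared directly. STT3A to STT3B was at -0.84, -0.95 and -0.96 in siCtrl and at -0.56 and -0.57 in siFAM53C. Per exon length, STT3B was thus the higher of the 2 in all libraries and by less in siFAM53C. That order depends on the exon lengths used, since in CPM alone both genes were at 241 in siFAM53C 1. The difference in log2 ratio was 0.35 (two-sided exact permutation test, p = 0.1, the smallest that 3 against 2 libraries allow, and 0.3 adjusted over the 3 pairs). MAGT1 to TUSC3 differed by -0.21 (exact permutation p = 0.3, adjusted 0.45) and SEC11A to SEC11C by 0.18 (exact permutation p = 0.5, adjusted 0.5), both with overlapping groups. Aligned coding sequences of these pairs were 63.3%, 68.0% and 73.1% identical in nucleotides.

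In levels per exon length, the members differed far more among themselves than between the treatments. In siCtrl, SSR3 was the most abundant at 211 ± 17.6 CPM per kilobase, and KRTCAP2 the least at 0.962 ± 0.323 CPM per kilobase, a ratio of 219. The member median was 29.3 CPM per kilobase. Within the SRP, SRP9 (128 ± 11.7 CPM per kilobase) and SRP14 (109 ± 25.4 CPM per kilobase) did not differ beyond their spread, SRP72 was at 37.4 ± 3.18 CPM per kilobase, and SRP68, SRP54 and SRP19 were lower at 15.3, 10.3 and 1.09 CPM per kilobase. In the TRAP complex, SSR2, SSR1 and SSR4 were at 27.5, 17.7 and 15.3 CPM per kilobase, all far below SSR3. SRP72 stood at 17.1 CPM per kilobase in siFAM53C, near the level of SRP68 at 14.1 CPM per kilobase. The exon lengths are those of all annotated transcripts merged, which lowers the value of a gene with long rare transcripts. KRTCAP2 and SRP19 also share 705 and 1909 of their exon bases with other genes on their own strand. How reads in shared bases were counted is not given in the sources used here. Their low levels, and the ratio of 219, are therefore uncertain.

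**Figure D4:**
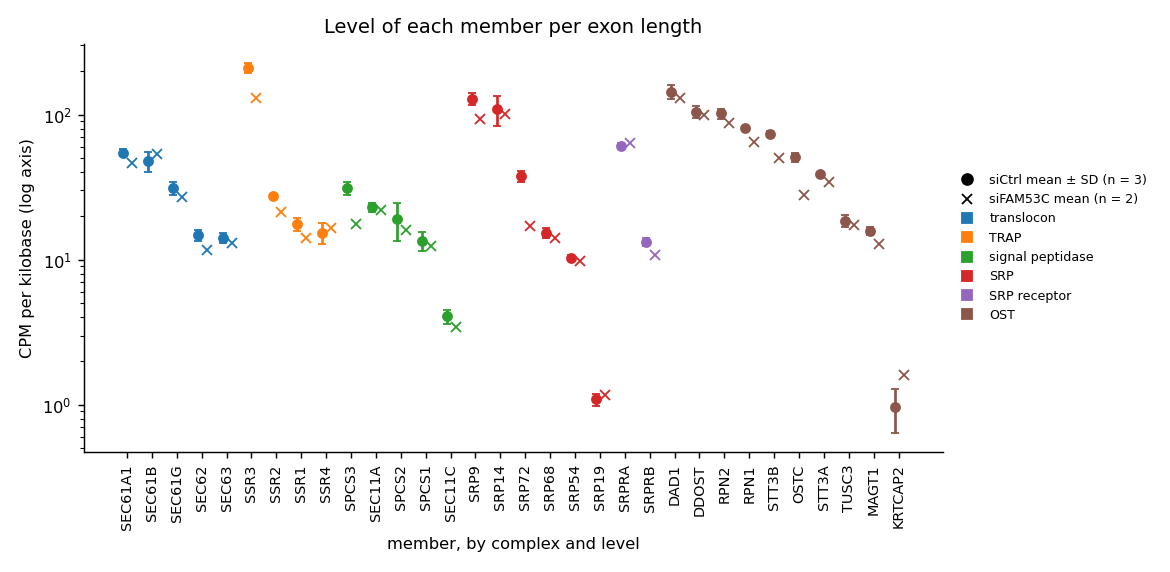
CPM per kilobase of merged exons for each member on a log axis, by complex and falling level, with circles for the siCtrl mean ± SD (n = 3) and crosses for the siFAM53C mean (n = 2). SSR3 leads at 211 CPM per kilobase in siCtrl, and SRP19 and KRTCAP2 lie lowest, at 1.09 and 0.962 CPM per kilobase. Both of these share exon bases with other genes on their strand, so their levels are uncertain.

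Genes that act beside this machinery were described from 5 further lists of 96 genes, of which 95 were in the table and 91 were tested. Of the 91, 8 fell and 0 rose (8.79% called lower), beside 3.21% and 0.404% of all tested genes. Without adjustment, 22 were lower and 3 higher at p under 0.05, beside 10.5% and 6.54% of all tested genes. These lists were also chosen with earlier results known, and in all 5 the same call rule was used.

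Among 15 tested genes that work around the translocon, TMCO1, a subunit of the translocon for multipass proteins, fell. It was at 74.1, 82.9 and 78.7 CPM in siCtrl and at 36.8 and 37.4 CPM in siFAM53C, with a log2 fold change of -1.08 (SE 0.11, edgeR adjusted p = 0.00328). Its partner CCDC47 was at -0.36 (adjusted p = 0.125 by the same test). The lowest value of the list was that of NOMO3, at -3.50 (SE 1.30), which had 1.66 ± 2.15 CPM in siCtrl. NOMO1, NOMO2 and NOMO3 are near-identical copies, so their counts are uncertain where reads were shared among them, which was not tested. The highest values were 0.21 for SEC61A2, a second channel gene, and 0.15 for WDR83OS. The median of the list was -0.07.

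For insertion of membrane proteins by the GET and EMC routes, 0 of 17 tested genes were called by edgeR's quasi-likelihood test, and without adjustment 0 were lower and 1 was higher at p under 0.05. The lowest log2 fold changes were -0.29 for EMC7 and -0.20 for EMC9. The highest were 1.14 for EMC6 (SE 0.45), which had 1.49 ± 0.687 CPM in siCtrl, and 0.35 for GET4. The median was -0.08. DESeq2's Wald test, limma-voom and the fit with a term for the library side called 0 of these genes lower as well.

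Of 30 genes for the lipid-linked sugar chain and its precursors, GFPT1 and GNPNAT1 fell, both of them enzymes of the hexosamine pathway that makes UDP-GlcNAc. GFPT1, which catalyses the first and rate-limiting step, was at 126, 143 and 203 CPM in siCtrl and at 40.7 and 59.8 CPM in siFAM53C, with a fitted log2 fold change of -1.65 (SE 0.25, edgeR adjusted p = 0.0171). It was -1.71 without siCtrl replicate 2 and -1.40 without siFAM53C replicate 1, each no longer called. GNPNAT1 was at 74.7, 80.9 and 77.7 CPM in siCtrl and at 28.8 and 28.5 CPM in siFAM53C, with a log2 fold change of -1.44 (SE 0.11, edgeR adjusted p = 0.00126). The remaining enzymes of that pathway, PGM3 and UAP1, were at -0.18 and -0.19. The highest values were 0.47 for MPI, which was called higher with a term for the library side (0.58, edgeR adjusted p = 0.0134), and 0.32 for DHDDS, and the list's median was -0.02.

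Among 17 genes of N-glycan trimming and the calnexin cycle, MAN1A1 and EDEM3 fell, both mannosidases. MAN1A1, a Golgi enzyme, was at 43.3, 45.5 and 47.2 CPM in siCtrl and at 15.2 and 16.0 CPM in siFAM53C, with a log2 fold change of -1.53 (SE 0.12, edgeR adjusted p = 0.00155). EDEM3, which trims glycans of proteins to be degraded, was at 67.0, 69.2 and 90.7 CPM in siCtrl and at 29.1 and 35.2 CPM in siFAM53C. Its log2 fold change was -1.23 (SE 0.17, edgeR adjusted p = 0.0119), and -1.11 and no longer called without siFAM53C replicate 1. Both siFAM53C libraries lay below the siCtrl libraries for 11 of the 17 genes, beside 18.8% of all tested genes, and the median was -0.32. The highest values were 0.34 for MOGS, which is ER glucosidase I, and 0.08 for PRKCSH, the beta subunit of glucosidase II. MOGS was called higher with a term for the library side, at 0.36 (edgeR adjusted p = 0.0463).

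Of 12 tested ER stress sensors and factors, HYOU1, HSPA5 and ATF6 fell. HYOU1, an ER chaperone, was at 321, 284 and 373 CPM in siCtrl and at 68.8 and 99.9 CPM in siFAM53C, with a log2 fold change of -1.95 (SE 0.20, edgeR adjusted p = 0.00360). HSPA5, the ER chaperone BiP, was at 1356, 1377 and 1649 CPM in siCtrl and at 677 and 924 CPM in siFAM53C. Its log2 fold change of -0.87 (SE 0.17, edgeR adjusted p = 0.0392) was not called without siCtrl replicate 1 (-0.92), siCtrl replicate 2 (-0.91) or siFAM53C replicate 1 (-0.67), nor with library totals alone (-0.80). ATF6 was at -0.67 (SE 0.12, edgeR adjusted p = 0.0264). It was -0.73 and -0.66 without siCtrl replicate 1 or 2 and -0.63 and -0.72 without siFAM53C replicate 1 or 2, each no longer called. The highest values were 0.42 for ERN1, which encodes IRE1, and 0.39 for CREB3L2, and the median was -0.33. The CREB3L2 value had an SE of 0.41, and its difference was 0.24 within the first side and 0.18 within the second.

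XBP1, the factor named for the UPRE, was listed at 0 in all 5 libraries, so no value of it can be given. BAG6 and ATF6B, also widely expressed genes, had 3 to 8 and 0 to 3 reads a library and were not tested. The reason was not tested, and no 0 in this table, those of the cell type markers included, was read as absence of a transcript. The heptamer GACAAGA stood in 18 of the 91 tested genes of these lists (19.8%), and 6 of the 8 called lower hold it, namely GNPNAT1, EDEM3, MAN1A1, ATF6, HSPA5 and HYOU1, whereas TMCO1 and GFPT1 do not. Over all tested genes with an annotated 3′ UTR, 219 of the 1779 with the heptamer and 266 of the 10309 without it were called lower. The median log2 fold change of the list genes was -0.35 with the heptamer and -0.08 without it. That the heptamer has a part in any of these values was not tested.

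**Figure D5:**
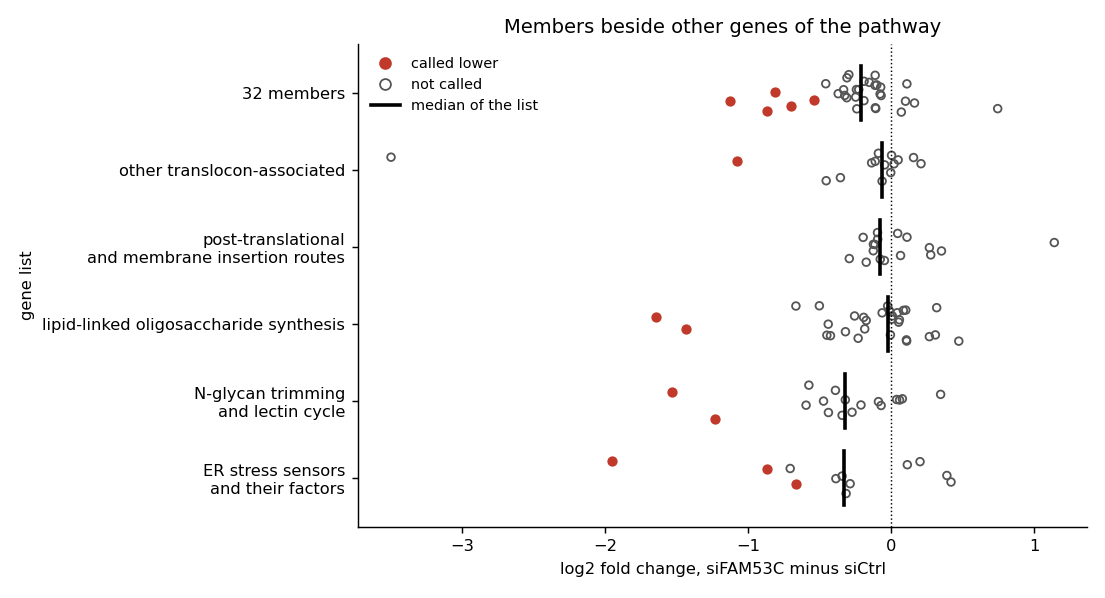
log2 fold change (siFAM53C minus siCtrl) of the 32 members and of the tested genes of 5 further lists, 1 point a gene, red where called lower and open where not, with a black bar at each median. The member median is -0.21, and the lowest called gene is HYOU1 at -1.95.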

How the data were processed

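RNA-seq was measured in 3 siCtrl and 2 siFAM53C libraries of RPE-1 cells. The authors trimmed reads with cutadapt 2.10 (minimum length 25), aligned them with HISAT2 to hg38 as reverse-stranded, and deposited raw read counts per gene from featureCounts. The annotation release, the strand setting of the counting and the treatment of reads with several matches are not given in the sources used here. The labels name the AllPrep kit for RNA extraction and the study's methods the RNeasy Plus Micro kit, and the methods speak of duplicates where 3 control libraries are present. The second siFAM53C library is replicate 2 by its title and number 3 by its column.

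From these counts, genes were filtered with filterByExpr (minimum count 10, minimum total 15), scaled by TMM factors and compared with edgeR 4.0.16 in R 4.3.3, with the condition only and edgeR's default options for the quasi-likelihood test, and Benjamini-Hochberg adjustment over 15341 genes. A call needs an adjusted p under 0.05. Log2 CPM used a prior count of 2. Alternatives were other size factors, DESeq2 1.42.0, limma-voom (limma 3.58.1), other filters, replicate blocks, a term for the library side and leaving out each library. After the first fit, 12 combinations of edgeR options were counted to find why an earlier analysis of these data gave more calls. They gave 493 to 533 genes lower and 62 to 81 higher. Robust estimation, chosen after seeing the data, then served as the main fit for a time. The main fit was afterwards returned to the default options of the first fit, and robust estimation was kept as an added alternative. On simulated counts for the comparison of siFAM53C with siCtrl over 15341 genes, edgeR called 76 of 100 genes changed by a log2 fold change of 2 and 39 of 99 changed by 1.

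The members and lists were chosen with earlier results of these data known. Named were FAM53C, all members, every called gene of the further lists and the lowest 2 and highest 2 of each. CCDC47, PGM3, UAP1, NOMO1, NOMO2, XBP1, BAG6 and ATF6B fall outside this rule and were named after their values were seen. Positions, exons and 3′ UTRs came from GENCODE v44 on GRCh38, and promoters from RefSeq. Identity within pairs was computed on coding nucleotides, since no protein table was used here. No replicate pair of counts agreed within sampling noise (chi-square per gene from 9.31 to 45.3). Counts of the members ran from 54 reads for KRTCAP2 to 24915 reads for SSR3 in a library.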

Additional observations from a re-analysis of the deposited data

How the results depend on the processing

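Of the 600 comparisons of a member or called list gene with an alternative, 550 kept their direction and their side of the threshold, 28 lost the call, 14 gained one and 8 changed sign. Only a called gene can lose a call, and most of the 600 concern members not called, so the 550 do not measure how stable the calls are. Among the called members, STT3B lost the call in 5 of 15 alternatives, SSR3 and SPCS3 in 4 each, OSTC in 3 and SRP72 in 1. The FAM53C log2 fold change was called in all 15 alternatives, from -2.07 to -1.42, and members called higher were 0 in all of them. When siFAM53C replicate 1 was left out, 0 members were called lower by edgeR, in a fit where 1 siFAM53C library remains and is assumed to vary like the siCtrl libraries. Over the 5 fits without 1 library the count ran from 0 to 6. Calls of all tested genes ran from 105 to 740 lower and from 5 to 279 higher there.

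DESeq2's Wald test gave 890 genes lower and 257 higher, no filter on low counts 987 and 420, and library totals alone 98 higher and a member median of -0.14. With a term for the library side, 1493 were lower and 870 higher, with 11 members, 4 translocon-associated genes, 4 lipid-linked genes, 9 trimming genes and 7 stress genes lower and 2 list genes higher. DESeq2 called 4 lipid-linked and 6 trimming genes lower, and no filter 2 translocon-associated, 4 lipid-linked and 5 trimming genes. Without 1 library in turn, the list counts were 1 translocon-associated gene throughout, 1 to 3 lipid-linked, 1 to 4 trimming and 1 to 4 stress genes. Robust estimation, added after seeing the data, gave 533 lower and 75 higher, with 5 members lower and 3 lipid-linked genes lower in place of 2. The causes were not tested.

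Sample titles and column names give different replicate numbers. Same-numbered libraries deviated from their group means with correlations of 0.17 and -0.28 by titles and of 0.17 and 0.37 by columns. With 2 siFAM53C libraries, their deviations mirror each other, so the correlations of a numbering are not independent. They cannot show whether the numbers pair the libraries. The replicate block by titles gave 257 genes higher and SSR4 at -0.028. The replicate block by column names gave 1299 lower and 594 higher, 9 members, 4 translocon-associated, 4 lipid-linked, 9 trimming and 6 stress genes lower, 1 list gene higher and SRP14 at 0.038. Leaving out 1 library turned the sign of 4 members that were not called. SSR4 ran from -0.017 without siCtrl replicate 3 and -0.0044 without siFAM53C replicate 2 to 0.20 without siFAM53C replicate 1. SPCS1 ran from -0.22 without siCtrl replicate 3 to 0.00093 without siCtrl replicate 1. SPCS2 and SRP14 ran from -0.61 and -0.35 without siFAM53C replicate 1 to 0.032 and 0.082 without siFAM53C replicate 2, and SRP14 was at 0.030 without siCtrl replicate 2. Low counts limit what can be said of KRTCAP2.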
